A study of Mus musculus with 8 samples.

Results

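The 10 subunit genes of respiratory complex III were followed in lung endothelial cells in which 1 of them, Uqcrq, had been deleted. They were taken by symbol from a count table of 43430 genes: Uqcrq, Uqcrh, Uqcrc1, Uqcrc2, Uqcrfs1, Cyc1, Uqcrb, Uqcr10, Uqcr11 and mt-Cytb. All 10 passed the filter on low counts. The labels name the deleted subunit QPC, and QPC was read as the protein that Uqcrq encodes.

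Complex III sits in the inner mitochondrial membrane, takes electrons from ubiquinol, passes them to cytochrome c and pumps protons as it does so. Its catalytic subunits are cytochrome b, encoded by the mitochondrial gene mt-Cytb, cytochrome c1 (Cyc1) and the Rieske iron-sulfur protein (Uqcrfs1). The core proteins (Uqcrc1, Uqcrc2) face the matrix, and small subunits surround the rest. Of these, the products of Uqcrq and Uqcrb bind cytochrome b at an early step of assembly, so the complex needs Uqcrq although that protein carries no redox centre.

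The samples were 4 wild-type (WT) and 4 knockout (KO) libraries of C57BL/6 mice at postnatal day 15. WT was labelled wild type, and KO was labelled as lacking the subunit, deleted in endothelial cells on tamoxifen, a drug that switches on an inducible recombinase. The treatment text, the same for all 8 libraries, gives tamoxifen from day 0 to day 4, and the cells were sorted from lung for the endothelial surface protein CD31. The sources used here do not give the promoter that drives the recombinase, the exon removed, or whether WT mice carried the recombinase or the floxed allele. No label ties a library to its own animal, and the p-values therefore reflect variation among these 8 samples, some of which may be technical.

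Libraries held 6407924 to 13981329 counts. The 10 endothelial markers summed to 14972 to 17511 CPM (counts per 1e+06 counts, TMM-normalised) in WT and 12893 to 16572 in KO, and none was at 0. Of these 10, 4 had a fold change above 0, 0 were called higher in KO and 2 were called lower, against 1.39% of all genes. Those 2 were Tek and Erg, a vessel receptor gene and a transcription factor gene (edgeR adjusted p = 0.00762 and 0.0231). Markers of alveolar type 2 cells, the surfactant-making epithelium, were present in every library, at 3634 to 21612 CPM in WT and 3579 to 15824 in KO over 7 genes. WT replicate 2 and KO replicate 1 had the lowest sums in their groups. Of 7 leukocyte markers, Lyz2, which alveolar type 2 cells also express, was at 407 to 2000 CPM in WT and 374 to 1465 in KO, and the other 6 lay between 0 and 13.3 CPM in every library. In bulk RNA, fewer cells with a transcript and less of it per cell cannot be told apart.

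Uqcrq was lower in every KO library, but to very different extents. The gene (ENSMUSG00000044894) lies on the minus strand of chromosome 11, 53427922 to 53430831 in GRCm38, and its principal transcript Uqcrq-201 has 2 exons, of 292 and 1229 bases. The coding sequence, 249 bases long, is shown because this is the gene that the KO lacks by its label. It is read from the GENCODE transcript, spans chr11:53429056-53430689, and has the 154 bases of exon 1 in capitals and those of exon 2 in lower case.
Uqcrq-201: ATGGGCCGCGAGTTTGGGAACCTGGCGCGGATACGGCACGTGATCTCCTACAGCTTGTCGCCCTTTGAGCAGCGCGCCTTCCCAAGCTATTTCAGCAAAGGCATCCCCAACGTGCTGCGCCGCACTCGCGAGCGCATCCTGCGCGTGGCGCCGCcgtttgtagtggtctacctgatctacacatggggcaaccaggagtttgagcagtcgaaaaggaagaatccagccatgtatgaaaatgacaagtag

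Counts on Uqcrq were 314, 284, 179 and 383 in WT replicates 1 to 4 and 17, 199, 121 and 193 in KO replicates 1 to 4. As a percentage of the WT mean CPM, KO replicates 1 to 4 held 5.84%, 57.1%, 35.1% and 51.3%, while the WT libraries lay between 89.9% and 116%. Counts are per gene and the exon removed is not given, so these levels cannot be read as intact transcript. The groups did not overlap, and KO replicate 1 stood far below the other 3 KO libraries. Without TMM scaling, KO replicate 1 was at 5.48% of the WT mean (exact 95% interval for counting error 3.19% to 8.77%) and KO replicate 3, the next lowest, at 33.8% (28.0% to 40.4%). The highest KO level was 9.78 times the lowest, against 1.29 times in WT.

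The fitted log2 fold change of Uqcrq was -1.42 (SE 0.53), a mean of 10.2 ± 6.26 CPM in KO against 27.3 ± 3.01 CPM in WT (SD, n = 4 each). It did not pass the threshold across all genes (edgeR quasi-likelihood test, Benjamini-Hochberg adjusted p = 0.179), and in 21 alternatives the adjusted p ran from 0.0522 to 0.333. For this single value an exact two-sided permutation test gave p = 0.02857, the smallest possible here. Among 12689 genes, 461 were called (3.63%), with 285 higher (2.25%) and 176 lower in KO (1.39%). The KO group was entirely below the WT group in 4.67% of genes, as for Uqcrq. When trends on GC content and transcript length were taken out of each library, 50 genes were higher and 86 lower.

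Alveolar type 2 markers in KO replicates 1 to 4 were at 3579, 10654, 15824 and 6557 CPM. KO replicate 1 was thus lowest in both these markers and Uqcrq. KO replicate 3, the highest in these markers, held less Uqcrq than replicates 2 and 4. Endothelial markers summed to 16572, 12893, 13841 and 13966 CPM in KO replicates 1 to 4. The sums of 5 fibroblast markers were 150, 675, 454 and 203 CPM. Replicates 1 and 2, with the least and the most Uqcrq, held the extremes of both sums. Replicate 4, with more Uqcrq than replicate 3, had the higher endothelial and the lower fibroblast sum. The part of cell make-up in the spread of Uqcrq among KO libraries was not tested. A fit that also included the level of the alveolar type 2 markers gave Uqcrq a log2 fold change of -1.38 (edgeR adjusted p = 0.188). That fit has a common slope for WT and KO, so it does not measure a part of these cells that differs between the groups.

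**Figure D1:**
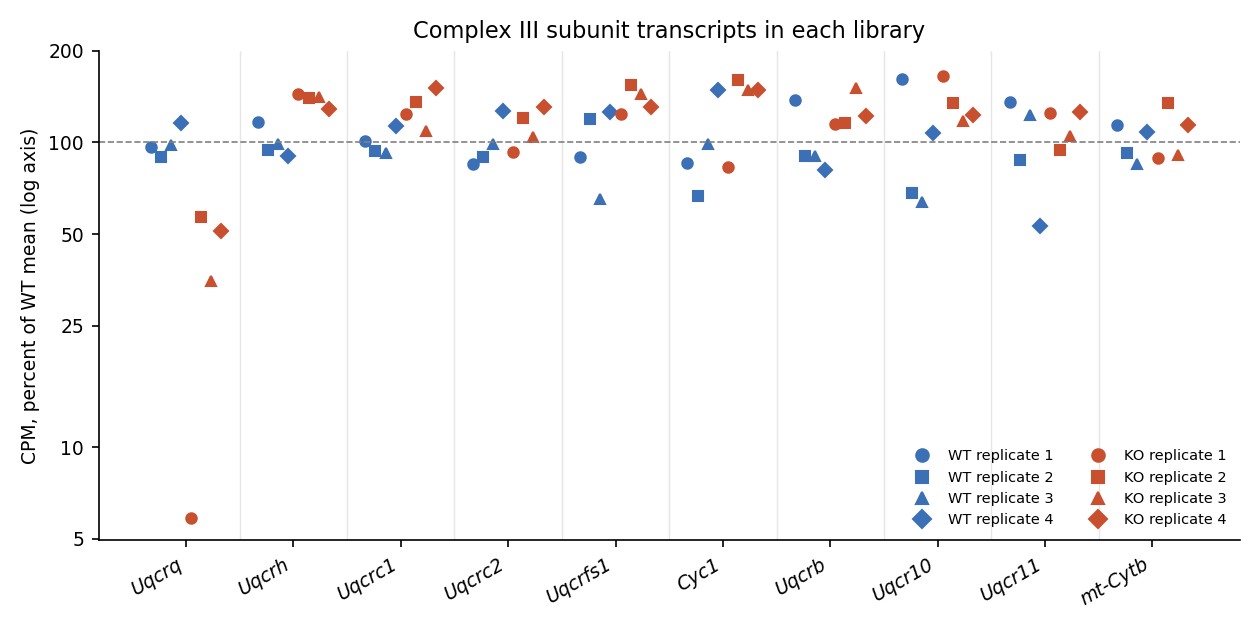
Level of the 10 subunit transcripts in each of the 8 libraries, as CPM in percent of the WT mean on a log axis (blue, WT; red, KO; 1 point shape per replicate number, which does not pair the samples). Uqcrq lies at 5.84% to 57.1% in KO, while for the other 9 genes the lowest KO value is 82.8%, Cyc1 in replicate 1.

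Of 10 other annotated genes of the table within 50 kb of Uqcrq, 6 had no counts in any library, among them Gdf9, an oocyte growth factor gene that starts 192 bases from Uqcrq on the opposite strand. Aff4, a gene of transcription elongation 6092 bases away, had 135 ± 19.0 CPM in WT and 111 ± 9.01 in KO and did not pass (log2 fold change -0.28, SE 0.16, edgeR adjusted p = 0.497). Shroom1, an actin-binding protein gene, was the only other neighbour that passed the low-count filter, at 5.09 ± 4.36 CPM in WT and 3.25 ± 2.69 in KO (edgeR adjusted p = 0.927). Uqcrh-ps1 and Uqcrh-ps2, pseudogenes named after a subunit gene, had 0 counts in all libraries.

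None of the other 9 subunit genes was called in KO, in either direction. Their fitted log2 fold changes were all above 0, from 0.10 for mt-Cytb to 0.47 for Uqcrh, with a median of 0.38, against 0.01 over all genes tested, of which 51% lay above 0. By edgeR 0 of 9 passed after adjustment (adjusted p 0.17 to 0.887), against 3.63% of all genes, and DESeq2 and limma voom called 0 too. An unadjusted p below 0.05 was met by 3 of the 9 and by 1931 of all genes tested (15.2%). Without the trend on GC content and length the median was 0.15, and Uqcrc2 (-0.05) and Uqcr11 (-0.08) lay below 0.

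**Figure D2:**
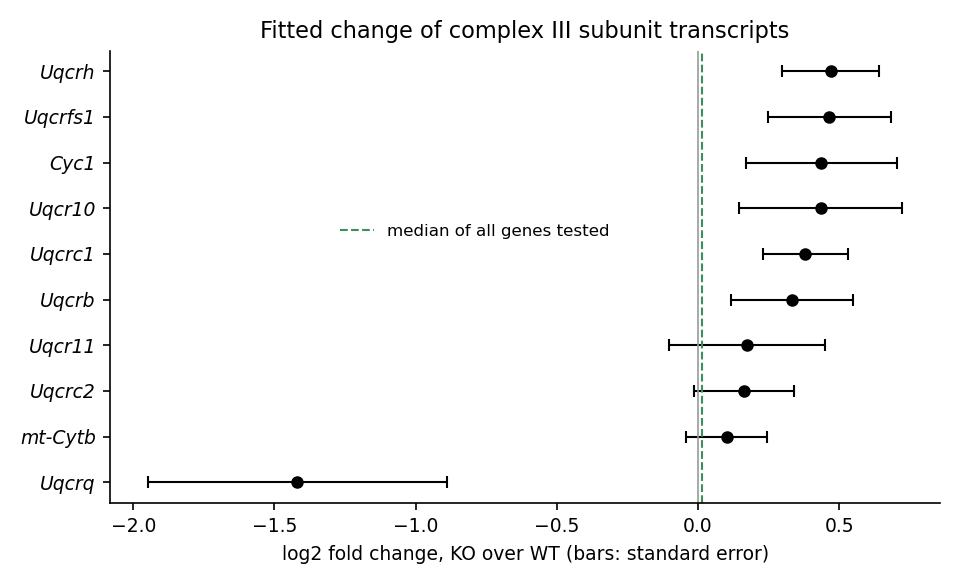
Fitted log2 fold change, KO over WT, of the 10 subunit genes, with bars of 1 standard error and the median of all genes tested as a dashed line. Uqcrq stands alone at -1.42, and the other 9 lie between 0.10 and 0.47.

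Among the catalytic subunits, Uqcrfs1 and Cyc1 had higher means in KO with large spread. Uqcrfs1, the Rieske protein gene, was at 63.2, 84.1, 45.9 and 88.5 CPM in the WT libraries, in replicate order, and 87.3, 108, 101 and 92.4 CPM in KO. KO replicate 1 lay inside the WT range, near its top, and the other 3 KO libraries lay above it. The log2 fold change was 0.47 (SE 0.22, edgeR adjusted p = 0.323).

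Cyc1, the cytochrome c1 gene, was at 54.4, 42.4, 63.1 and 94.5 CPM in WT and 52.6, 102, 94.9 and 94.8 CPM in KO. KO replicate 1 lay within the WT range and apart from the other 3 KO libraries, which sat at the level of the highest WT library. The log2 fold change was 0.44 (SE 0.27, edgeR adjusted p = 0.517), 0.61 without KO replicate 1 and 0.70 without WT replicate 4.

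Neither core protein gene was called. Uqcrc1 was at 161, 149, 148 and 180 CPM in WT and 198, 216, 174 and 241 CPM in KO. Of the 4 KO libraries, 3 lay above every WT library, with a log2 fold change of 0.38 (SE 0.15, edgeR adjusted p = 0.221). Uqcrc2 ran from 108 to 163 CPM in WT and from 120 to 167 in KO, so that the groups overlapped over nearly their whole range (log2 fold change 0.16, SE 0.18).

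Of the small subunits, Uqcrh was the 1 member other than Uqcrq whose groups were fully separated. It encodes the hinge protein, which lies next to cytochrome c1. Its levels were 90.1, 73.1, 76.2 and 70.1 CPM in WT and 112, 108, 109 and 99.4 CPM in KO, the narrowest KO spread of all 10 members (coefficient of variation 4.95%). Its log2 fold change, 0.47 (SE 0.17), missed the threshold (edgeR adjusted p = 0.17, from 0.109 to 0.909 over 21 alternatives). Separation in either direction was met by 11.6% of all genes tested, and by 6.94% with KO above WT, so 1 of 9 is near the background.

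Uqcrb, whose product joins that of Uqcrq on cytochrome b, ran from 52.8 to 90.0 CPM in WT and from 74.7 to 98.5 in KO (log2 fold change 0.33, SE 0.22, edgeR adjusted p = 0.561). Uqcr10 ran from 29.5 to 74.6 CPM in WT and from 54.5 to 76.6 in KO, and Uqcr11 from 27.5 to 70.5 in WT and from 49.0 to 65.3 in KO. WT libraries varied 2.53-fold in Uqcr10 and 2.56-fold in Uqcr11, more than in any other member, and this spread covers the whole KO range of Uqcr11.

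Per kilobase of principal transcript, the order of the WT levels was mt-Cytb (4315 CPM per kb), Uqcrh (141), Uqcrb (122), Uqcr11 (116), Uqcr10 (107), Uqcrc1 (96.4), Uqcrc2 (67.6), Uqcrfs1 (51.7), Cyc1 (41.8) and Uqcrq (17.9). The WT ranges of Uqcrh, Uqcrb, Uqcr11 and Uqcr10 overlapped, as did those of Uqcrc2, Uqcrfs1 and Cyc1 from one neighbour to the next. Uqcrc1 (89.3 to 109) did not overlap Uqcrc2 (57.2 to 85.9), but Uqcr11 (61.8 to 158) and Uqcr10 (67.9 to 172) overlapped both. Uqcrq (16.1 to 20.7) lay below the lowest Cyc1 library (27.9). The order depends on the length used, and gene counts do not tell isoforms apart. Per kilobase of the median annotated transcript of each gene, Uqcrc1 (274) and Uqcrc2 (183) came above Uqcrh (141), and Uqcrq, at 60.0, was above only Uqcrfs1 (51.7). Per kilobase of all exons joined, Uqcrq was the lowest again (14.9), next to Cyc1 (29.5).

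Within a library, Uqcrq took 3.56% to 4.19% of the CPM of the 9 nuclear subunit genes in WT and 0.202%, 1.75%, 1.15% and 1.53% in KO replicates 1 to 4. This share does not depend on how libraries are scaled. Per kilobase, the mean KO share was 29.1% of the WT share, against 29.3% on the CPM scale. The other 8 nuclear genes together held 600 to 726 CPM in WT and 785, 875, 820 and 897 CPM in KO replicates 1 to 4. Every KO library was thus above every WT library in their sum. The sum of 12 nuclear complex IV genes was separated too (914 to 1304 CPM in WT, 1353 to 1563 in KO). Both sums are on the TMM scale, with factors of 0.954 for KO replicate 1 and 1.01 for WT replicate 1. Without TMM scaling KO replicate 1 falls below WT replicate 1 in the complex IV sum, so those groups overlap. The complex III sums then stay apart, but by less. That of 36 nuclear complex I genes overlapped (1613 to 2191 in WT, 2113 to 2465 in KO).

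The library with the least Uqcrq was not the one with the highest level of the other subunits. KO replicate 1, at 5.84% of WT Uqcrq, had the smallest sum of the KO libraries, and its median log2 difference from WT over the 8 genes was 0.34, against 0.47, 0.42 and 0.41 in replicates 2, 3 and 4. In WT libraries the same median, each set against the other 3, lay between -0.14 and 0.26. With 4 KO libraries no correlation was computed.

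The transcriptome response of each KO library was measured on the genes called without that library. It was a mean log2 difference of 0.97, 0.99, 1.08 and 0.88 in KO replicates 1 to 4, in the direction called, over 446, 308, 270 and 377 genes. WT libraries, treated in the same way, gave 0.04 to 0.30. The gene lists differ between libraries, so these means stand side by side and were not tested against each other. Beside them, Uqcrq was at 5.84%, 57.1%, 35.1% and 51.3% of WT in the same order.

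A list of 24 targets of ATF4, a transcription factor induced by mitochondrial and nutrient stress, and amino acid synthesis genes gave another order. Its median log2 difference over 22 tested genes was 2.14, 1.39, 1.94 and 1.33 in KO replicates 1 to 4 and -0.43 to 0.38 in WT. The 2 KO libraries with less Uqcrq, replicates 1 and 3, had the higher medians. Replicate 4, with less Uqcrq than replicate 2, had a lower median than replicate 2. With 4 KO libraries the relation was not tested. The list was drawn up with its rise in these samples known, and its level was set here only against Uqcrq, library by library.

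**Figure D3:**
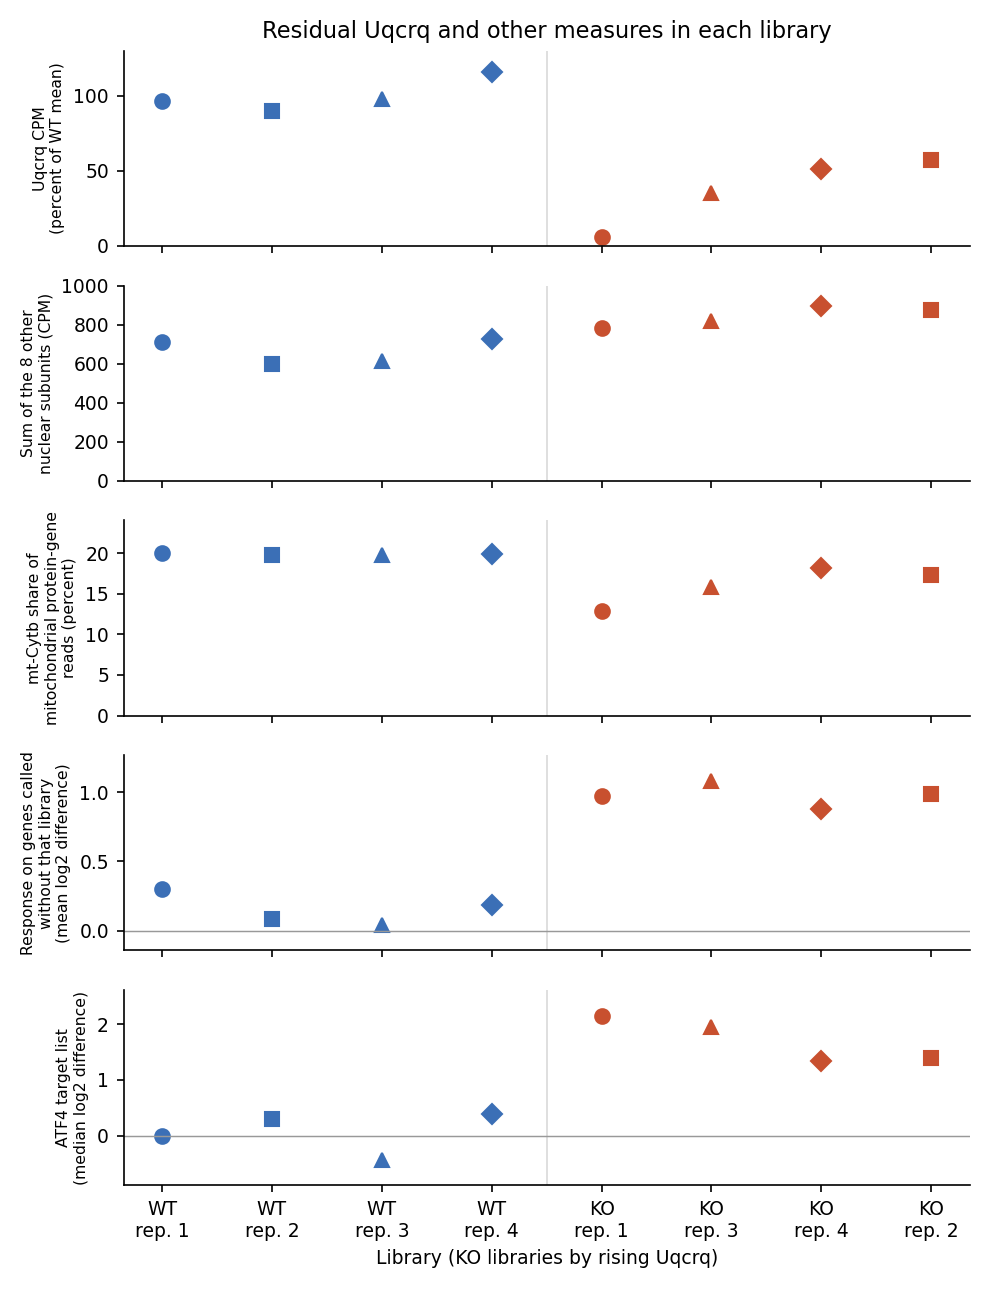
From top to bottom for each library, with KO libraries in order of rising Uqcrq: Uqcrq in percent of the WT mean, summed CPM of the 8 other nuclear subunit genes, mt-Cytb in percent of reads on protein genes of the mitochondrial genome, mean log2 response on genes called without that library, and median log2 difference of the ATF4 list. The response runs from 0.88 to 1.08 in KO, while the mt-Cytb share is 12.8%, 15.8%, 18.1% and 17.3% from left to right.

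The level of mt-Cytb, the only subunit gene on the mitochondrial genome, was not called different. Its share of the reads counted on mitochondrial protein genes was lower in every KO library than in any WT library. The gene lies on the plus strand of the mitochondrial chromosome, from base 14145 to 15288. Its CPM was 5643, 4545, 4204 and 5354 in WT and 4397, 6662, 4498 and 5625 in KO, with overlapping groups (log2 fold change 0.10, SE 0.14, edgeR adjusted p = 0.866). Of the reads on the 13 protein genes of that genome, 142698 to 492113 per library, mt-Cytb took 19.97%, 19.72%, 19.71% and 19.94% in WT replicates 1 to 4 and 12.8%, 17.3%, 15.8% and 18.1% in KO replicates 1 to 4.

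The WT shares of mt-Cytb differed by less than 1 point, and every KO library lay below them. The means were 19.8 ± 0.14% and 16.0 ± 2.32% (SD, n = 4 each), a difference of -3.82 points (exact two-sided permutation p = 0.02857, the smallest possible, and 0.0743 after Benjamini-Hochberg adjustment over the 13 genes). This measure was chosen after the values were seen. The lowest share was that of KO replicate 1, the library with the least Uqcrq, followed by replicate 3. Without KO replicate 1 the difference was -2.76 points. With mt-Co1 left out of the total the shares were 28.5% to 29.5% in WT and 20.7% to 27.5% in KO. Alveolar type 2 markers were at 21612, 3634, 9088 and 16326 CPM in WT replicates 1 to 4, and the 2 WT libraries with more of them, replicates 1 and 4, had the higher shares. In KO the lowest share went with 3579 CPM of these markers and the highest with 6557. Their part in the lower share in KO was not tested.

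Other genes of the mitochondrial genome differed in share too. Of the 8 with over 1% of these reads in WT, mt-Nd4, mt-Nd5 and mt-Nd6, genes of complex I, were also lower in share in all KO libraries, at 83.2%, 85.1% and 85.1% of their WT share, with mt-Cytb at 80.7%. mt-Co1, the catalytic subunit gene of complex IV, was higher in share in all KO libraries, at 114% of WT, and each of these 4 reached the smallest exact permutation p of 0.02857 (0.0743 adjusted over the 13 genes). mt-Nd1, mt-Nd2 and mt-Atp8 stood at 108%, 105% and 101%, with overlapping groups. On the plus strand the genes with a lower share, mt-Nd4, mt-Nd5 and mt-Cytb, start at bases 10167 to 14145, and mt-Nd1, mt-Nd2, mt-Co1 and mt-Atp8 start at 2751 to 7766.

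These are shares, and a lower share is not a lower level: mt-Co1 rose by 0.60 on the log2 scale (edgeR adjusted p = 0.0175), mt-Nd1 by 0.53 (0.0253) and mt-Nd2 by 0.48 (0.0309), while mt-Nd4, mt-Nd5 and mt-Nd6 had 0.14, 0.17 and 0.18 and were not called. These calls were lost, all 3 of them, with the trend on GC content and length taken out and without WT replicate 2, WT replicate 3 or KO replicate 2. Without WT replicate 4 or KO replicate 1, the mitochondrial protein genes other than mt-Cytb held 1 call. They held 2 without KO replicate 3, with RLE scaling or with the replicate block. The remaining 5 protein genes each held under 1% of these reads. Counts per library were 0 to 91 for mt-Nd3, 18 to 74 for mt-Nd4l and 97 to 284 for mt-Co2. They were 0 to 58 for mt-Co3 and 133 to 485 for mt-Atp6, against 45396 to 182263 for mt-Co1. The shares thus rest almost wholly on the 8 genes with over 1%. These 5 genes start at bases 7013 to 9877, where of those 8 only mt-Atp8 starts. Parts of the mitochondrial genome have near-identical copies in the nuclear genome, and how reads that match both were counted is not given in the sources used here.

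**Figure D4:**
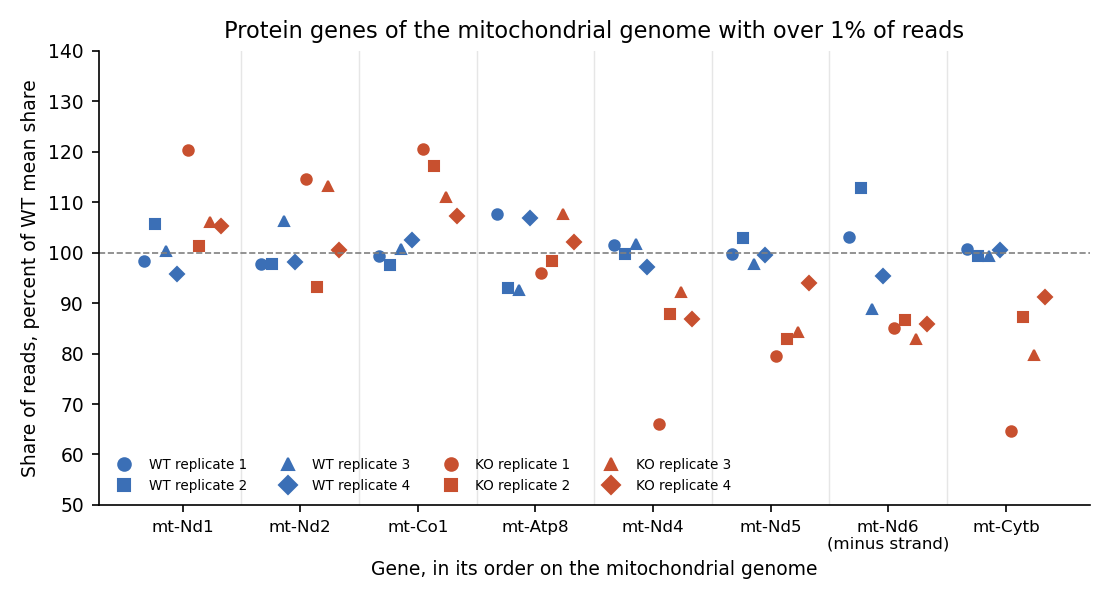
Share of each gene in the reads on mitochondrial protein genes, in percent of its WT mean share, for the 8 genes with over 1% of these reads, in their order on the mitochondrial genome (blue, WT; red, KO; the axis starts at 50). Points of KO libraries lie above all WT points for mt-Co1 and below them for mt-Nd4, mt-Nd5, mt-Nd6 and mt-Cytb.

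Genes that build complex III or work beside it were not called either. In 4 lists with 34 genes, 33 were tested and edgeR called 0 (3.63% of all genes were called), with 3 at an unadjusted p below 0.05 (15.2% of all genes) and 0 called by DESeq2 or limma voom. Assembly factors had a median log2 fold change of 0.15 over 8 genes, which ran from -0.094 without WT replicate 3 to 0.41 without WT replicate 1 and was -0.081 without KO replicate 3. Among them Uqcc2, which assists the synthesis and early assembly of cytochrome b, had the smallest p, at 20.6 ± 11.2 CPM in WT and 40.7 ± 9.68 in KO (log2 fold change 0.98, SE 0.37, edgeR adjusted p = 0.194), and Uqcc1, its partner, had 19.8 ± 3.55 and 27.0 ± 6.04 CPM (0.629).

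Cycs, the gene of cytochrome c, which takes up the electrons from complex III, was at 40.7, 21.6, 39.2 and 40.3 CPM in WT and 47.9, 62.9, 66.5 and 73.3 CPM in KO. All KO libraries lay above all WT libraries, as in 6.94% of all genes tested. The log2 fold change was 0.82 (SE 0.26, edgeR adjusted p = 0.102). Cycs passed in 1 of 21 alternatives, with the alveolar type 2 level as a covariate (0.0406). Cox7a2l, listed here for its link to supercomplexes, in which respiratory complexes are joined, differed little (196 ± 52.0 CPM in WT and 216 ± 22.3 in KO).

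The 13 genes of ubiquinone synthesis had a median log2 fold change of 0.26. Pdss1, which encodes a subunit of the enzyme that makes the ubiquinone tail, had 0 counts in 3 WT libraries and 3.71 CPM in replicate 2, against 5.53, 14.2, 6.49 and 5.21 CPM in KO replicates 1 to 4. It passed the low-count filter through the KO libraries, so that it had to be higher there, and it was not called (edgeR adjusted p = 0.471). Its partner Pdss2 had 3.07 ± 3.10 CPM in WT and 10.8 ± 9.54 in KO (edgeR adjusted p = 0.575).

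Of the dehydrogenases that feed electrons to ubiquinone, 9 of 10 were tested, with a median log2 fold change of 0.17, which was -0.032 with the trend on GC content and length taken out and 0.0086 without KO replicate 4. Prodh, the proline dehydrogenase gene, was at 17.7, 20.9, 16.0 and 11.7 CPM in WT and 5.34, 5.01, 3.64 and 9.92 CPM in KO. The groups did not overlap, with a log2 fold change of -1.47 (SE 0.57) that missed the threshold (edgeR adjusted p = 0.208). Sdhd, a membrane anchor of complex II, had 77.4 ± 17.5 CPM in WT and 102 ± 13.3 in KO (edgeR adjusted p = 0.375).

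Nuclear genes of the other respiratory complexes also had fold changes above 0 for the most part. Of 36 nuclear complex I genes 35 had a log2 fold change above 0, with a median of 0.22 and 1 call, Ndufa11. The list held 1 call in 11 of 21 alternatives and 0 in the other 10. Of 12 nuclear complex IV genes 11 were above 0, with a median of 0.38 and 0 calls by edgeR. An unadjusted p below 0.05 was met by 5 genes of each list. Over all genes 3.63% were called and 15.2% had such a p. The median of the complex III genes other than Uqcrq was 0.38, and the difference between the lists was not tested. With the trend on GC content and length taken out the medians were -0.01 for complex I and 0.16 for complex IV.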

How the data were processed

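RNA from 8 libraries of sorted mouse lung cells was measured by RNA-seq. The deposited table gives unnormalised counts of reads for each gene, 1 column per library, which the authors made with bcl2fastq, TopHat and HTSeq on build mm10, per the submitters' processing notes, which also name edgeR. The sources used here give no versions, annotation release or strand setting. Of 43430 Ensembl gene IDs, 42546 had a symbol in GENCODE M21 (GRCm38, the build called mm10), and all 10 member symbols matched. No value column was left unmapped to a label.

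From these counts, TMM factors, filterByExpr (minimum count 10, minimum total 15) and edgeR 4.0.16 in R 4.3.3 (quasi-likelihood F test, robust, genotype as the only term, Benjamini-Hochberg over 12689 genes, threshold 0.05) gave fold changes, with standard errors derived from F. CPM values are TMM-scaled unless stated. Log2 differences of single libraries use edgeR's log-CPM with a prior count of 2. Levels per kilobase divide CPM by the length of the principal protein-coding transcript. The response of a library is the mean, over genes that edgeR called without that library, of its log2 difference from the other WT libraries, signed by the direction called. Shares were compared by exact two-sided permutation of the means, whose smallest p is 0.02857 for 4 against 4. Intervals are exact (Clopper-Pearson, 95%) and cover counting error only, since reads carry no molecular identifiers. The fitting steps were tested on simulated data.

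The members and gene lists were chosen with earlier results of these data known. Genes named outside the members were, per list, those past the threshold or else the 2 with the smallest p, annotated genes within 50 kb of Uqcrq, and the 5 genes of at least 5 CPM closest in profile to Uqcrq. Others are marked where named. Alternatives were scaling by RLE, by the upper quartile or by totals alone, a filter at a mean of 5 CPM or none, DESeq2 1.42.0, limma voom (limma 3.58.1), edgeR with legacy = FALSE, the replicate block, the alveolar type 2 level as a covariate, taking out trends on GC content and transcript length per library, removal of mitochondrial and haemoglobin genes, and leaving out each library. The trend with the longest transcript, and all alternatives for the mt-Cytb share, were added after seeing the data.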

Additional observations from a re-analysis of the deposited data

Results flagged for a closer look

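Of 32 groups of 4 values examined for a single distant library, 2 were marked by Dixon's test at 95%, near the 1 in 20 that chance alone marks. Cyc1 in KO had its lowest value, 52.6 CPM, in replicate 1, far from the 94.8 to 102 CPM of the other 3 KO libraries. That library also held the least Uqcrq and the lowest alveolar type 2 markers of the KO group. Uqcrb in WT had its highest value, 90.0 CPM, in replicate 1, against 52.8 to 59.0 CPM in the other 3 WT libraries, and that library had the highest alveolar type 2 markers of all. The part of these markers in either value was not tested.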

How the results depend on the processing

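Uqcrq kept a log2 fold change below 0 and an adjusted p above 0.05 in all 21 alternatives (-1.81 to -1.06), and none of the other 9 subunit genes was called in any. DESeq2 called 788 genes (371 lower) and edgeR with legacy = FALSE 747 (450 higher, 297 lower), against 461. With the length and GC trend removed 136 were called (50 higher, 86 lower), and 159 (60 higher, 99 lower) with the longest transcript in place of the median one, an alternative added after seeing the data. Leaving out 1 library gave 270 to 446 genes, 173 to 259 higher and 97 to 187 lower, the fewest without KO replicate 3, with 105 lower without KO replicate 2 and 111 without WT replicate 2, and 0 to 1 calls in the complex III pathway lists (Pdss1, without WT replicate 2, which leaves its WT group at 0 counts), where the alveolar type 2 covariate gave 1 (Cycs). With the trend removed, by median and by longest transcript, log2 fold changes turned for Uqcrc2 (-0.050, -0.090), Uqcr11 (-0.075, -0.20) and Cox7a2l (-0.036, -0.13), and by longest transcript for mt-Cytb (-0.15). The cause was not tested. Without 1 library Uqcr11 ran from -0.035 (WT replicate 4) to 0.36, mt-Cytb from -0.026 (KO replicate 2) to 0.18 and Shroom1 from -1.15 to 0.051 (WT replicate 3). The replicate numbers share no stated source, and same-numbered libraries deviated with correlations of -0.10 to 0.00. With the replicate block 338 genes were called, 0 of the other subunits, and Uqcrq had -1.73 (edgeR adjusted p = 0.171). KO replicate 1 held only 17 counts of Uqcrq, and without it the log2 fold change was -1.06 (edgeR adjusted p = 0.163).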

Other observations

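Among 10691 other tested genes of at least 5 CPM, the profile over the 8 libraries, each relative to its WT mean on the log2 scale, was closest to that of Uqcrq for Gcdh, Zfp790, Zfp35, Prdm8 and Trim12c, with root mean square differences of 0.32, 0.37, 0.47, 0.52 and 0.53. Gcdh, a mitochondrial dehydrogenase gene of lysine breakdown, was at 20.3, 21.05, 18.4 and 18.5 CPM in WT and 1.12, 9.63, 11.7 and 11.7 CPM in the KO libraries, and was not called (log2 fold change -1.19, SE 0.59, edgeR adjusted p = 0.365). The genes were chosen for this likeness, so their lower level in KO, and lowest in KO replicate 1, follows from the choice. Prdm8 (edgeR adjusted p = 0.00286) and Trim12c (0.0324) were called lower, and the zinc finger genes Zfp790 (0.295) and Zfp35 (0.132) were not. Prdm8 passed in all 21 alternatives and Trim12c in 16 of 21 (edgeR adjusted p = 0.105 without WT replicate 2). The complex III genes other than Uqcrq had differences of 1.55 (mt-Cytb, rank 4053) to 1.963 (Uqcr10, rank 8439) among the 10691 genes compared. Uqcrc2 was at rank 4701, and the rest ranked from 6254 (Cyc1) upward, in the farther part.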
